A study of Mus musculus with 6 samples.

Results

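The genes described here are 10 members of the BCL2 family, picked by name: the survival members Bcl2, Bcl2l1, Bcl2l2 and Mcl1, the effector Bak1, and the BH3-only members Bid, Bad, Bik, Bmf and Bcl2l11. All 10 were found by symbol among the 27179 gene rows of the deposited table, and the rule uses no measured value, although the family was proposed with earlier results of these data known. RNA sequencing was done on mouse embryonic fibroblasts of the genotype Cas9+;E1A;HrasG12V, which means that control and knockout cells alike carried Cas9, the adenoviral oncogene E1A and an activated Hras. Lentivirus brought in a guide RNA, carriers were selected, and RNA was taken after 10 days of culture. The 3 control libraries received the negative control guides EV, SPA and ACOCA (libraries 1, 2 and 3), and the 3 knockout libraries received the Zmat3 guides 52.6, 51.5 and 54.8 (libraries 1, 2 and 3). The question is whether transcript levels of the family change once Zmat3 is targeted, a gene that p53 induces and that encodes an RNA-binding protein. No guide was used in more than 1 library. Whether the cells came from separate cultures, or are clones, the labels leave unsaid, so p-values measure the spread between these libraries.

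Proteins of the BCL2 family decide whether the outer mitochondrial membrane stays closed. The survival members hold the pore formers BAK and BAX in check, and BH3-only proteins set them free, either by occupying the groove of the survival proteins or by activating the pore formers directly. Once the membrane opens, cytochrome c is released and caspases are activated. E1A is known to make cells prone to apoptosis, and its transforming activity is helped by survival members of this family.

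The libraries held 53253055 to 90256118 reads assigned to genes, and levels are given as normalised read counts unless a sentence names another scale. In bulk RNA, fewer cells of a type and less RNA per cell cannot be told apart. Zmat3 stood at 17169, 15868 and 17434 in control libraries 1, 2 and 3 and at 11421, 4912 and 4960 in knockout libraries 1, 2 and 3, so knockout library 1 kept 67.9% of the control mean. The limma log2 fold change of Zmat3 was -1.36 (SE 0.33, adjusted p = 0.371), and DESeq2's adjusted p was 0.0444, or 0.21 without control library 3. Control library 3 stood apart from the other 5 on the first principal component, which held 59.4% of the variance, and it was the highest or the lowest library in 73.4% of the 14777 genes tested. Of 10 fibroblast markers, Vim and Fn1 were abundant while Lum was at 0 in all libraries and Thy1 was at 5.42 or less. The fibroblast collagen Col3a1 stood at 2424, 2407 and 198 in control libraries 1, 2 and 3 and at 2987, 3512 and 3546 in knockout libraries 1, 2 and 3. Its groups did not overlap, as in 27.5% of all genes tested, 13.2% with knockout higher. Over 6 libraries Col3a1 was not called (limma adjusted p = 0.393, DESeq2 adjusted p = 0.571). Without control library 3, a fit chosen after the data were seen, DESeq2 called it higher (adjusted p = 0.0116), as it did 2.62% of genes. Col1a1, Pdgfra and Pdgfrb were also lowest in control library 3, at 61.4, 424.8 and 1407, while Vim was highest there. Epcam, an epithelial marker, stood between 3574 and 25182, lowest in control library 3, while the epithelial keratin Krt5 was at 0 throughout. Another epithelial keratin, Krt18, stood at 4463, 106.9 and 8675 in control libraries 1, 2 and 3 and at 217, 91.3 and 452 in knockout libraries 1, 2 and 3, highest in control library 3. The leukocyte markers Ptprc and Adgre1 were at 8.26 or less in every library. The summed level of the 8 leukocyte markers, nearly all Cd68, ran from 840 to 6061 in control and from 7177 to 9248 in knockout. The part of these differences in the results below was not tested.

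Mcl1 was the most abundant member per kilobase of its longest annotated transcript, and Bik had the lowest mean. Mcl1, a short-lived survival protein, had 4871 ± 298 normalised reads per kilobase (SD, n = 6 libraries). Bcl2l1, which encodes the survival protein BCL-XL, followed at 2283 ± 259 and Bak1 at 1929 ± 664 normalised reads per kilobase. The ranges of these last genes overlapped over the libraries, so their order was not separated, whereas Mcl1 lay above both in every library. Bad, Bcl2l11 and Bcl2l2 formed the next tier at 1184 ± 121, 1099 ± 176 and 923 ± 75.6 normalised reads per kilobase. The range of Bcl2l11 overlapped with those of Bad and Bcl2l2, whereas Bad lay above Bcl2l2 without overlap. Bid stood clear of its neighbours on either side at 531 ± 43.0. Bcl2 itself, the founding member, had only 169 ± 26.9 normalised reads per kilobase, and its range overlapped with that of Bmf at 124 ± 66.4 and not with that of Bik at 40.2 ± 15.6. The ranges of Bmf and Bik overlapped, since in control library 3 Bmf had 11.7 and Bik 60.1. These levels depend on the transcript taken as the length. With the mean length over annotated transcripts the order of Mcl1, Bcl2l1 and Bik was the same, Bcl2l11 moved to rank 3 ahead of Bak1, Bcl2l2 ahead of Bad, and Bmf moved ahead of Bcl2. Some reads may belong to neighbours, since exonic bases are shared with an antisense gene for 20.5% of Bad (Gpr137), for 17.7% of Bid (Bcl2l13) and for 6.09% of Bcl2 (D630008O14Rik). Bcl2l2 shares 13.3% with the same-strand gene Gm20521. Bak1 shares 7.35% and 18.2% with separate entries of the antisense gene Ggnbp1.

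**Figure D1:**
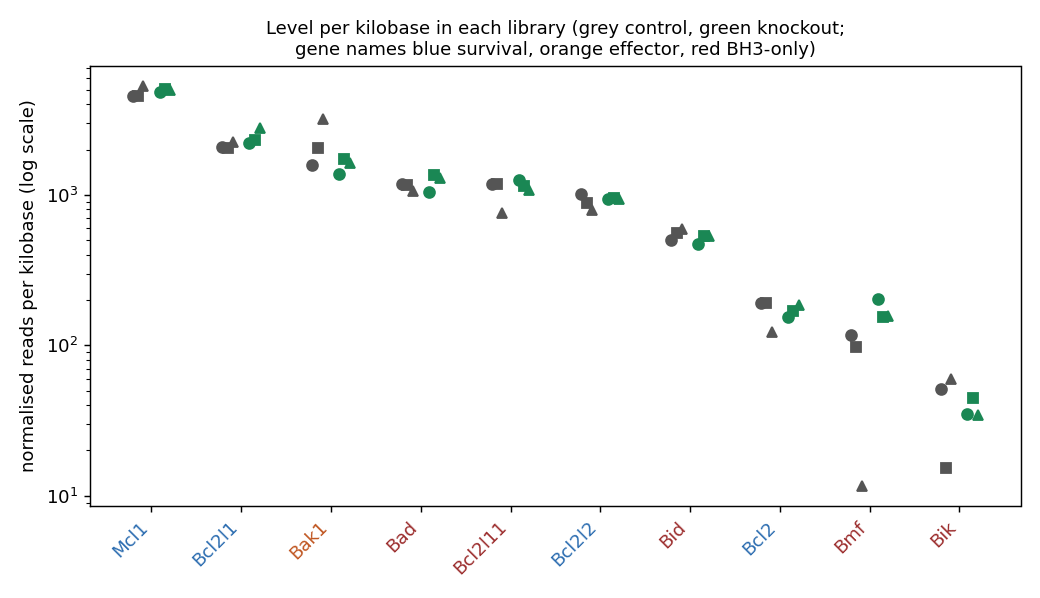
Normalised reads per kilobase of the longest annotated transcript (log axis) for the 10 members, with 1 point per library, grey for the 3 control and green for the 3 knockout libraries, and marker shapes for libraries 1, 2 and 3. Mcl1 lies above every other member in all 6 libraries, and the low point of Bmf is control library 3.

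No member passed the test between knockout and control. All 10 members passed the filter on low values, and limma called 0 of them, as it called 0.0% of the 14777 genes tested. The smallest limma adjusted p among the members was 0.373, for Bmf, and no member had an unadjusted p under 0.05 in limma, edgeR or DESeq2, against 13.2% of all genes tested in limma and 13.1% in edgeR. DESeq2, which called 0.891% of the genes for which it gave an adjusted p, and edgeR, with 0.0%, also called 0 members. The log2 fold changes of 8 members lay within 0.25 of zero, as did those of 46.1% of all genes tested. The median over the members was 0.07 on the log2 scale, beside 0.01 over all genes tested.

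**Figure D2:**
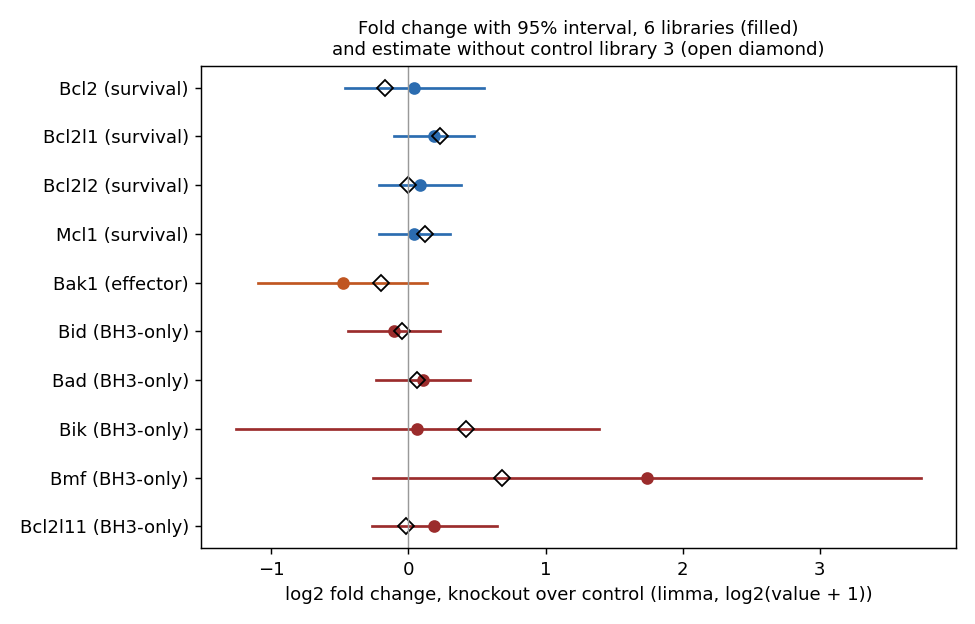
Limma log2 fold change of each member, knockout over control, with its 95% interval from 6 libraries (filled points and lines) and the estimate without control library 3 (open diamonds). All intervals include zero, and the widest are those of Bmf, from -0.26 to 3.74, and Bik, from -1.26 to 1.39.

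The log2 fold changes of the survival members all lay within 0.25 of zero, with intervals that include zero but do not show that levels were unchanged. Mcl1 stood at 15434, 15634 and 18180 in control libraries 1, 2 and 3 and at 16567, 17177 and 16901 in knockout libraries 1, 2 and 3. All knockout values lay inside the control range, with control library 3 highest. The log2 fold change was 0.04 (95% interval -0.21 to 0.30, limma adjusted p = 0.828). Without control library 3 it was 0.12 (limma adjusted p = 0.512), since every knockout value lay above control libraries 1 and 2.

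Bcl2l1 had the largest estimate among the survival members. It stood at 5312, 5280 and 5809 in control libraries 1, 2 and 3 and at 5707, 5960 and 7102 in knockout libraries 1, 2 and 3. The groups overlapped only through control library 3, which lay just above knockout library 1. The log2 fold change was 0.19 (95% interval -0.10 to 0.48, limma adjusted p = 0.431), and it stayed positive, between 0.09 and 0.25, when any 1 library was left out.

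Bcl2l2, which encodes the survival protein BCL-W, stood at 3870, 3388 and 3023 in control libraries 1, 2 and 3 and at 3595, 3661 and 3576 in the knockout libraries. The 3 knockout values lay inside the control range and differed little from each other (3610 ± 44.5, SD, n = 3). Bcl2 stood at 1373, 1375 and 881 in control libraries 1, 2 and 3 and at 1113, 1220 and 1339 in knockout libraries 1, 2 and 3. Every knockout value of Bcl2 lay below control libraries 1 and 2 and above control library 3. Its log2 fold change was accordingly 0.04 (95% interval -0.47 to 0.55) over 6 libraries and -0.17 (limma adjusted p = 0.536) without control library 3.

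Bak1, the effector that forms pores in the outer mitochondrial membrane, had the only estimate below -0.25 among the members. It stood at 3788, 4897 and 7657 in control libraries 1, 2 and 3 and at 3289, 4130 and 3862 in knockout libraries 1, 2 and 3. The groups overlapped, since control library 1 lay below 2 of the 3 knockout libraries, and control library 3 held 176% of the mean of control libraries 1 and 2. The log2 fold change was -0.48 (95% interval -1.09 to 0.14, limma adjusted p = 0.385, exact permutation p = 0.3). It was -0.20 without control library 3, and 9.98% of all genes tested had a log2 fold change as low or lower (at or below that of Bak1).

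Bmf, a BH3-only gene whose product is held at the actin-linked myosin V motor in healthy cells, was the only member whose groups did not overlap. It stood at 542, 449.5 and 54.3 in control libraries 1, 2 and 3 and at 950, 721 and 733 in knockout libraries 1, 2 and 3. Groups did not overlap in 27.5% of all genes tested, 13.2% with knockout higher, so 1 member in 10 is no more than this background. A log2 fold change as high as that of Bmf or higher was found in 1.38%. The fold change of Bmf was 1.74 on the log2 scale (SE 0.84, 95% interval -0.26 to 3.74, limma adjusted p = 0.373), and the exact two-sided permutation p was 0.1, the smallest that 3 libraries against 3 allow. Its size rests on control library 3, where 46 reads were counted and the level was 10.9% of the mean of control libraries 1 and 2.

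Without control library 3 the log2 fold change of Bmf was 0.69 (SE 0.19, limma adjusted p = 0.244), in a fit that called 0.0338% of genes and no member. By DESeq2 it was 0.69 with an adjusted p of 0.027 for these 5 libraries, a fit chosen after the data were seen, in which 5.49% of genes were called and 2.62% were called higher. Bmf was the only member called there, and Zmat3 itself was not called in that fit (-1.22 on the log2 scale, DESeq2 adjusted p = 0.21). The knockout library that kept most Zmat3 transcript, library 1, had the highest Bmf value. Each knockout library had its own guide, and RNA levels do not show how much ZMAT3 protein was left. Whether the Bmf level depends on the loss of Zmat3 was therefore not tested by this comparison of single libraries.

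Bcl2l11, which encodes BIM, a BH3-only protein able to bind every survival member, stood at 5933, 5910 and 3827 in control libraries 1, 2 and 3 and at 6339, 5747 and 5466 in knockout libraries 1, 2 and 3. Apart from the low control library 3 the values of both groups interleaved. The log2 fold change was 0.19 (95% interval -0.27 to 0.65, limma adjusted p = 0.584), and -0.02 without control library 3.

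Bid, which is cut by caspase 8 and links death receptors to mitochondria, stood at 1209, 1345 and 1437 in control libraries 1, 2 and 3 and at 1139, 1281 and 1289 in knockout libraries 1, 2 and 3. Its groups overlapped, with a log2 fold change of -0.10 (95% interval -0.44 to 0.23). Bad, which is silenced by phosphorylation when growth factors are present, stood at 1802, 1794 and 1633 in control libraries 1, 2 and 3 and at 1609, 2084 and 1972 in knockout libraries 1, 2 and 3. Knockout library 1 was the lowest of the 6 and knockout library 2 the highest, and the log2 fold change was 0.11 (95% interval -0.23 to 0.45). Bik, whose product sits mainly at the endoplasmic reticulum, was barely expressed, with 28 to 86 reads per library. It stood at 68.2, 20.5 and 80.2 in control libraries 1, 2 and 3 and at 47.0, 60.1 and 46.1 in the knockout libraries, all inside the control range. The sign of its fold change was not fixed, at 0.06 in limma and -0.13 in DESeq2 on the log2 scale.

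**Figure D3:**
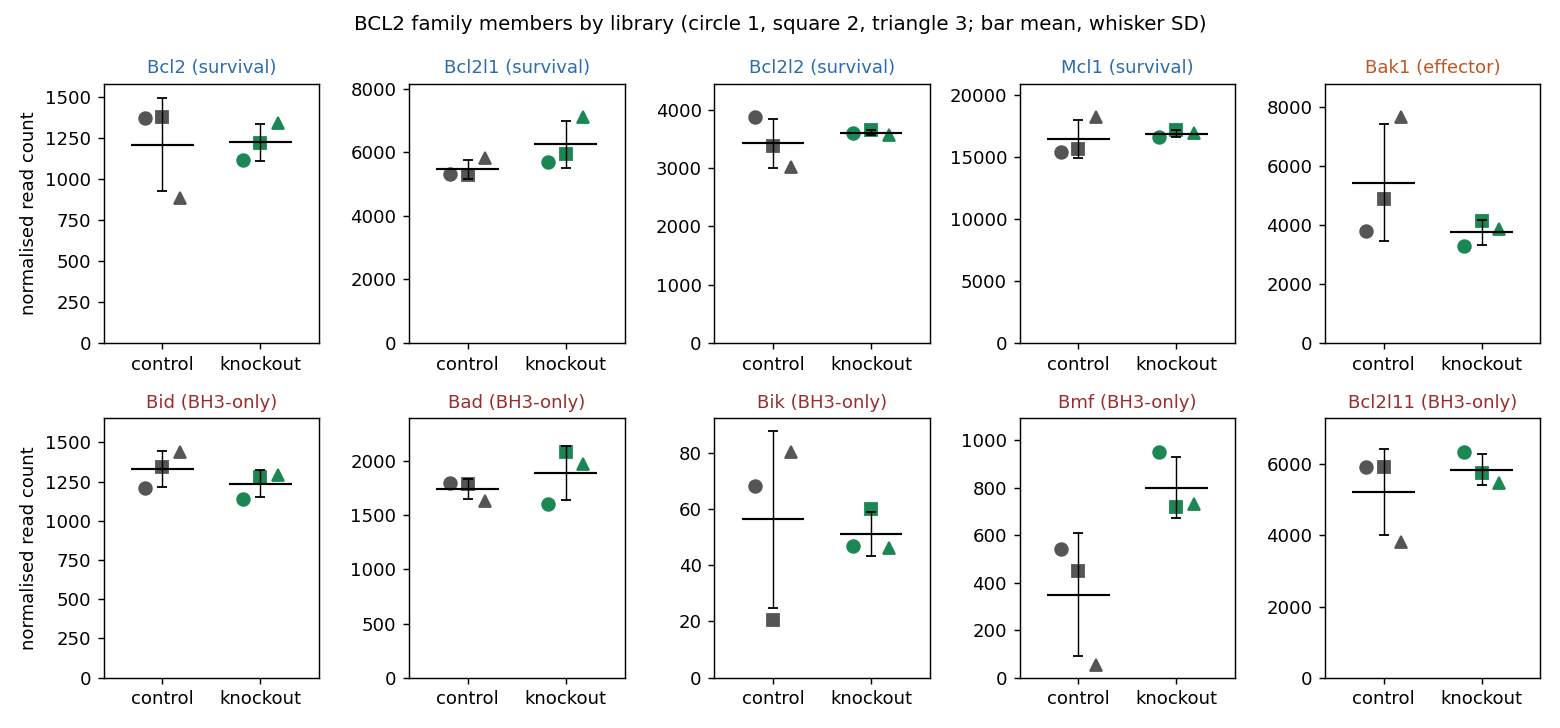
Normalised read counts of the 10 members, each panel with its own axis from 0, with 1 marker per library (circle, square and triangle for libraries 1, 2 and 3), the group mean as a bar and the SD as a whisker (n = 3). Only in the Bmf panel do the knockout markers all lie above the control markers, and the triangle of control library 3 lies far from the other controls for Bcl2, Bak1, Bmf and Bcl2l11.

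Set against each other, the summed levels of survival and death members gave survival members a slightly larger share in the knockout libraries. The death members summed here are Bak1 and the BH3-only members, without the pore former Bax and other relatives. Bax had means of 21645 normalised reads in control and 17906 in knockout libraries, against 5447 and 3760 for Bak1. The share therefore does not show whether survival transcripts outweighed death transcripts in these cells. Survival members made up 62.8%, 60.4% and 59.8% of the summed normalised reads per kilobase of all members in control libraries 1, 2 and 3. The share was 65.0%, 63.1% and 65.2% in knockout libraries 1, 2 and 3, so the groups did not overlap, by a margin of less than 1 percentage point. With Bak1 left out of the sum the groups overlapped, with shares of 72.0%, 71.9% and 77.3% for control libraries 1, 2 and 3 and of 73.0%, 72.4% and 74.0% for knockout libraries 1, 2 and 3. The ratio of Bcl2l1 to Bak1, in normalised reads per kilobase, came to 1.30, 1.00 and 0.705 for control libraries 1, 2 and 3 and to 1.61, 1.34 and 1.71 for knockout libraries 1, 2 and 3. All 3 knockout ratios thus exceeded all 3 control ratios, with control library 1 close to knockout library 2. This pair joins the survival member with the highest estimate to the member with the lowest, so its direction follows from the choice. The ratio of Mcl1 to Bcl2l11 overlapped between groups, with 3.83, 3.90 and 7.0 for control libraries 1, 2 and 3 and 3.85, 4.40 and 4.56 for knockout libraries 1, 2 and 3. Among single genes, 27.5% of all tested had groups without overlap, and no such share was computed for scores. No p is given for these scores over several members.

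A measure that gives each member the same weight went the other way. The mean log2 value of the survival members minus that of the death members was 2.05, 2.24 and 2.32 in control libraries 1, 2 and 3. It was 2.01, 1.96 and 2.14 in knockout libraries 1, 2 and 3, a mean difference of -0.16 with overlapping groups, and of -0.11 against control libraries 1 and 2 alone. With Bmf left out the index was 1.80 ± 0.25 over the control libraries and 1.94 ± 0.11 over the knockout libraries (SD, n = 3), with overlapping groups. That difference of 0.13 rested on control library 3, since against control libraries 1 and 2 it was 0.0018. Over both groups Mcl1 made up 56.0% to 62.6% of the survival sum, and Bcl2l11 made up 30.5% to 41.7% of the BH3-only sum, lowest in control library 3.

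**Figure D4:**
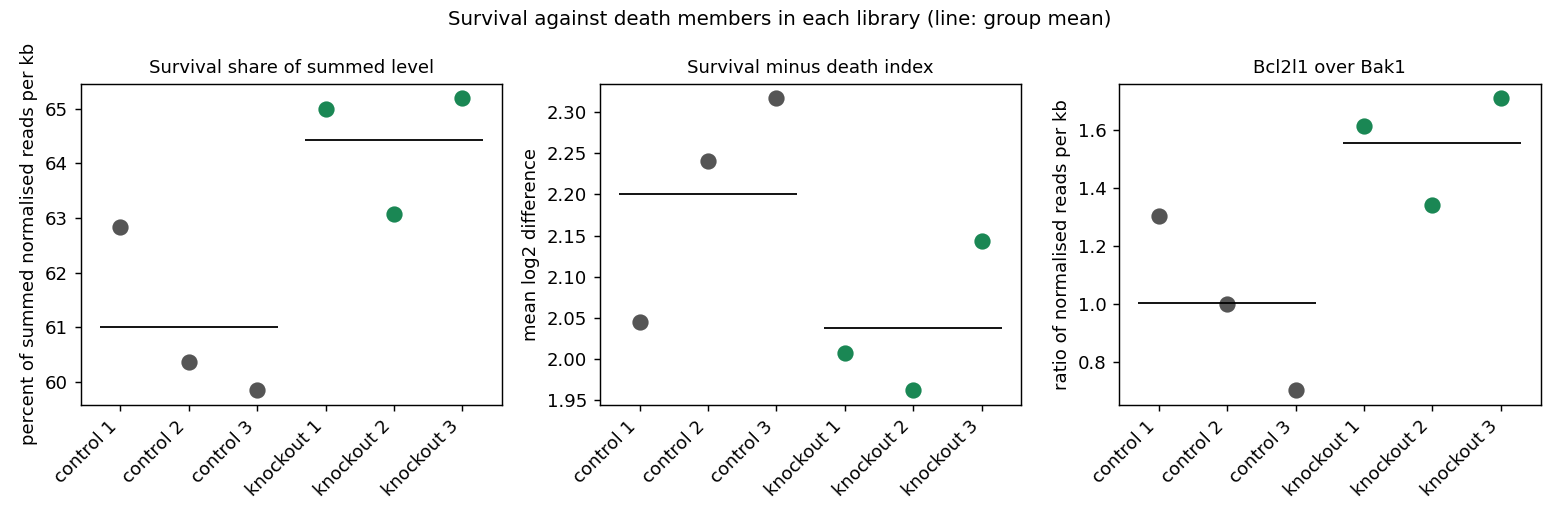
Survival members' share of the summed normalised reads per kilobase (left), mean log2 value of survival minus death members (middle) and ratio of Bcl2l1 to Bak1 per kilobase (right), with 1 point per library and a line at each group's mean; the axes do not start at 0. The share and the ratio are higher in the 3 knockout libraries than in the 3 control libraries. The middle panel is lower in the knockout libraries on average, with overlap. Bax is in neither the share nor the middle panel.

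The largest differences within the family lay between control libraries rather than between groups. Control library 3 was the highest or lowest of the 6 libraries for 8 of the 10 members, close to its share of 73.4% over all genes tested. It was lowest for Bcl2, Bcl2l2, Bmf and Bcl2l11, and highest for Mcl1, Bak1, Bid and Bik, against 36.6% and 36.8% of all genes tested. Bmf in that library lay 3.16 below the mean of control libraries 1 and 2 on the log2 scale, a distance matched or passed by 1.5% of all genes tested. Bcl2 and Bcl2l11 lay 0.64 and 0.63 below that mean, at 64.2% and 64.6% of it in normalised reads, and Bak1 lay 0.83 above it. A distance as large as that of Bak1 was found in 25.6% of all genes tested. Within the family the apoptotic members therefore did not move one way in control library 3: the pore former was high while the BH3-only genes Bmf and Bcl2l11 were low.

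**Figure D5:**
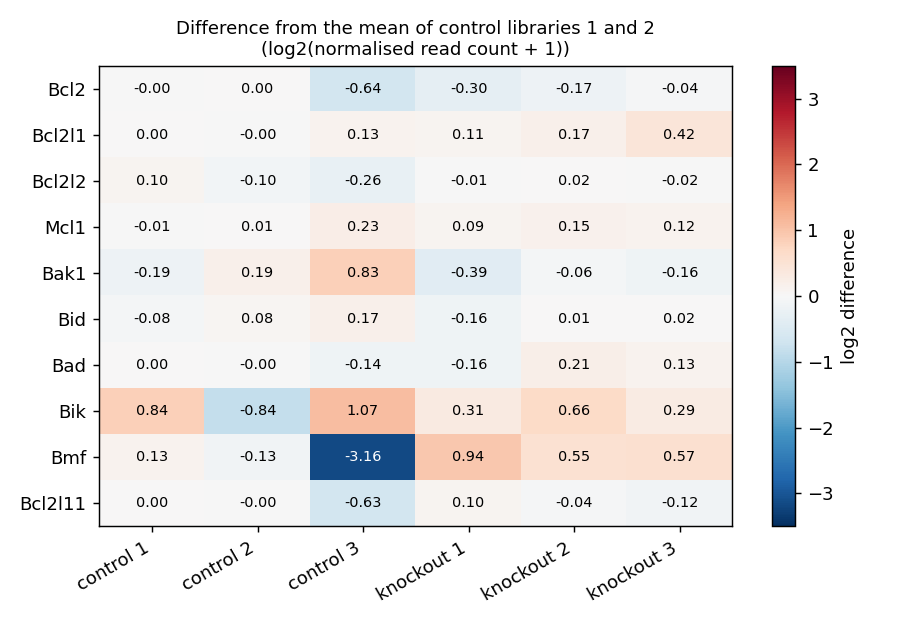
Difference of each library from the mean of control libraries 1 and 2 for the 10 members, on the scale of log2(normalised read count + 1), with the value printed in each cell. Control library 3 holds the largest difference in the map, -3.16 for Bmf, and differs by 0.83 for Bak1. Mcl1, Bid and Bad stay within 0.25 of zero in all libraries.

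Promoter sequence is shown for the 4 members for which control library 3 lay furthest from the other controls in level, leaving out Bik with its few reads. These are the 300 bases around the annotated start (250 before, 50 after) nearest the 5′ end of the gene in RefSeq's GRCm38.p6 tables, read 5′ to 3′ on the gene's strand. Capitals mark GGGCGG or its reverse complement (GC box) and TGTTTAC or its reverse complement (the forkhead, or FOXO, motif).
Bmf, chr2:118549637-118549936, minus strand: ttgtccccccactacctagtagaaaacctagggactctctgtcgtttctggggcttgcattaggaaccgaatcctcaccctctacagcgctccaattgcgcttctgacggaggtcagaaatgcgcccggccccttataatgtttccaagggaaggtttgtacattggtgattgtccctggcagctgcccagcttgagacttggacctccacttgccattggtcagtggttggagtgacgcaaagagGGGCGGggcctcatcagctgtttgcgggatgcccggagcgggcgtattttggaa
Bcl2l11, chr2:128125788-128126087, plus strand: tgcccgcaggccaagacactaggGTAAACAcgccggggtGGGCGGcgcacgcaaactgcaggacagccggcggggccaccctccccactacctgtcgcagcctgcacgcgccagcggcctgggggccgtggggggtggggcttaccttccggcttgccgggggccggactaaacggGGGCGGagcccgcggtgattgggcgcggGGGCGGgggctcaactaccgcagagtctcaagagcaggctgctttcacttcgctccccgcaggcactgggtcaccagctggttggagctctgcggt
Bcl2, chr1:106714241-106714540, minus strand: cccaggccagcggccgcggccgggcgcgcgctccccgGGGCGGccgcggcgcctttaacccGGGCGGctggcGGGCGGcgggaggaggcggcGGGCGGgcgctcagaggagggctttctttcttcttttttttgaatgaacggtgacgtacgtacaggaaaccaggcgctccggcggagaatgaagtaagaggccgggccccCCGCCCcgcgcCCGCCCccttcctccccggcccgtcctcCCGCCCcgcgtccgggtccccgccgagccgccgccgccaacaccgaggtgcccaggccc
Bak1, chr17:27028578-27028877, minus strand: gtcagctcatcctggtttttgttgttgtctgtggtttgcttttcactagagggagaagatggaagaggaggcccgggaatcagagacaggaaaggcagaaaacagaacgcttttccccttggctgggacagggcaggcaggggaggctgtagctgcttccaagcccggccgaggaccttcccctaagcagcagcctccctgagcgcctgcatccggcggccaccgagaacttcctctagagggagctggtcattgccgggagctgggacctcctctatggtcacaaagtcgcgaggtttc

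Of these 4 windows that of Bcl2 is the richest in G and C, at 76.0%, with 7 GC boxes, and that of Bcl2l11 holds 3 GC boxes at 71.0%. Bmf has 1 GC box and Bak1 none in these windows, at 55.3% and 58.3% G and C, near the median of 52.7% over the 32851 promoters listed. A GC box is present in 35.7% of those promoters. The forkhead motif occurs once, in Bcl2l11, and in 3.65% of all listed promoters; FOXO3 is known to switch on Bcl2l11. The other motifs searched on both strands were the E box CACGTG (in 7.15% of listed promoters), the E2F motif TTTGGCGC (0.514%), the AP-1 motif TGANTCA (7.81%), the TATA box TATAAA (13.6%) and the CRE motif TGACGTCA (1.79%). They were not among these letters in any of the 4 windows. A match is a description of the letters, and binding was not measured.

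Since the ZMAT3 protein is known to bind AU-rich elements, the pentamer ATTTA was counted after the stop codon in the longest coding transcript of each member (GENCODE M21, GRCm38). It was found in 8 of 10 members and in 68.9% of the 13294 tested genes with such a transcript. Bcl2 held 15 copies in 5086 bases, Mcl1 8 in 2353 bases and Bcl2l11 6 in 4218 bases, whereas Bak1 and Bid held none and Bmf 1 in 3801 bases. The longer TATTTAT was present in 4 members, Bcl2, Bcl2l1, Mcl1 and Bcl2l11, and in 30.1% of tested genes. The 30 bases with most copies in the 3 members with most copies of the pentamer are given below, with ATTTA in capitals.
Bcl2, chr1:106543002-106543031, minus strand: ATTTAggaaaaaaaagATTTATTTATTTAa
Mcl1, chr3:95662590-95662619, plus strand: ATTTAtccttgatcatagtttgcttATTTA
Bcl2l11, chr2:128161350-128161379, plus strand: tgtatATTTAttttccgcttATTTAaatgt

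The lengths searched differed between members, and copy number did not simply follow them. Per kilobase Mcl1 had 3.40 copies, Bcl2 2.95, Bik 2.46 and Bcl2l11 1.42, and Bmf, which had the highest fold change of the members, 0.263. Copies per kilobase were not computed over all tested genes. As given above, none of the members passed the test.

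Genes next to the family in the pathway were not called either. Of 15 further BCL2 relatives, p53 targets among them, 10 were tested, and limma and DESeq2 called 0, with a median log2 fold change of 0.17 beside 0.01 over all genes tested. Bax, the second pore former, had a mean of 21645 ± 3534 over control and of 17906 ± 3843 over knockout libraries (SD, n = 3), and a log2 fold change of -0.29 (limma adjusted p = 0.461), so the estimates of both Bak1 and Bax were below zero. Without control library 3 that of Bax was -0.17. Bok, a further relative of the pore formers, had -0.11. The neuronal BH3-only gene Hrk had 1.06, from 97.8 ± 71.6 to 170.9 ± 72.7, but 0.35 without control library 3, and Bcl2l14 had 0.74 at 31.2 normalised reads or fewer in each library.

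In the caspase pathway, with genes that act at death receptors included, 0 of 22 genes were called by limma or DESeq2 over 6 libraries. Their median log2 fold change was -0.03. Groups did not overlap in 8 of these 22 genes, 2 of them higher in knockout and the rest lower. Over all genes tested the share was 27.5%, with 13.2% higher and 14.4% lower in knockout. Fadd, the adaptor of death receptors, stood at 641, 1021 and 1293 in control libraries 1, 2 and 3 and at 396, 611 and 483 in knockout libraries 1, 2 and 3. Every knockout value was below every control value, and the log2 fold change was -0.95 (SE 0.31, limma adjusted p = 0.371), and -0.73 without control library 3. Birc5, the mitotic inhibitor of apoptosis survivin, had -0.88 over 6 libraries and -0.45 without control library 3, where control library 3 held 13776 against 4717 and 6705 in the other controls. The caspase inhibitor relatives Birc2 and Birc3 had 0.42 and 0.61, Birc2 without overlap between groups. Without control library 3 these were 0.32 and 1.17. Parp1, a caspase substrate that repairs DNA, was called lower by DESeq2 without control library 3 (log2 fold change -0.27, adjusted p = 0.0415), a fit in which 2.87% of genes were called lower, and it was named after its values were seen.

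Of 20 partners and regulators of the members, 0 were called by limma or DESeq2, and 15 had estimates below zero. The median log2 fold change was -0.18, and -0.09 without control library 3, beside 0.01 over all genes tested in both fits. The lowest were Ywhab, a 14-3-3 protein of the kind that holds phosphorylated BAD in the cytosol, at -0.46, and Dynll1, a dynein light chain that binds BIM, at -0.45. The highest were Pim1, a kinase that phosphorylates BAD, at 0.45, and Btrc, a ubiquitin ligase subunit, at 0.15. Without control library 3 Ywhab had -0.29, Dynll1 -0.28, Pim1 0.25 and Btrc 0.03, which was then below Vdac2, Bag1 and Ywhaq. The lowest was then Huwe1, at -0.39. None of Ywhab, Dynll1, Pim1 and Btrc had groups without overlap. Over the whole list groups did not overlap in 7 of the 20 genes, 1 of them higher in knockout and the rest lower. Over all genes tested the share was 27.5%, with 13.2% higher and 14.4% lower in knockout.

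The genes nearest to Bmf in their pattern over the 6 libraries, each centred on its own mean, were Rasgef1a, Mamstr and Tmem151b among 13025 genes with a mean of at least 50. Their root mean square differences from Bmf were 0.112, 0.133 and 0.147 on the log2 scale. Rasgef1a stood at 301, 239 and 35.4 in control libraries 1, 2 and 3 and at 530, 399 and 377 in knockout libraries 1, 2 and 3. Like Bmf it was lowest in control library 3 and highest in knockout library 1. The genes nearest to Bak1 were Pgam1, Strap and Nup35, at 0.0308, 0.0324 and 0.0386 on the log2 scale, and all 3 were highest in control library 3 and lowest in knockout library 1. For Bmf and Bak1 alike, neighbours were picked for likeness over these same libraries, so shared highest and lowest libraries largely follow from the choice.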

How the data were processed

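Total RNA of 6 libraries, 3 per group, was sequenced, and the submitters' processing notes name STAR, DESeq2 and the mm10 build. Annotation, counter, strand setting, versions and filters were not given in the sources used here. The deposited values are a signal per gene and library that behaves as counts over a library-wide size factor. Dividing by what 1 read is worth gave whole reads for 100.0% of values (tolerance 0.001). Of 6263 rows without a name, 4376 took a RefSeq symbol by gene number; such rows held 1.90% to 2.23% of reads and stayed in the tests.

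Genes kept by filterByExpr (minimum 10 in 3 libraries) numbered 14777. Limma 3.58.1 with trend and robust options (R 4.3.3) tested log2(value + 1), two-sided, with Benjamini-Hochberg adjustment over all tested genes and an FDR of 0.05. On this scale the added 1 makes changes of low genes smaller. The estimate for Bmf, with its low control library 3, was nevertheless larger in limma than in DESeq2 or edgeR. The design had named edgeR for raw counts, and the deposited unit called for limma instead. DESeq2 1.42.0 called 129 and edgeR 4.0.16 (quasi-likelihood, TMM) called 0 genes on the recovered reads. Where DESeq2 gave no adjusted p, none is used. Intervals are limma's, at 95%. The tests were tried on simulated reads with known changes. No pair within a group looked like 1 library deposited again (chi-square over degrees of freedom, 18.5 or more). Members, gene lists and tests were chosen with earlier results of these data known. By rule the text names the 10 members, Zmat3, the 2 highest and 2 lowest genes of each pathway list, and the 3 genes nearest in pattern (mean of at least 50) to the highest and lowest member. Parp1, Vdac2, Bag1, Ywhaq and Huwe1 were named outside this rule, after their values without control library 3 were seen. Cell type markers and genes that share exonic bases with members are named too. Other tests, scalings, filters, pseudocounts, thresholds, a replicate block and leaving out libraries were tried.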

Additional observations from a re-analysis of the deposited data

How the results depend on the processing

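Each member's log2 fold change was recomputed under 16 alternatives, giving 160 values. Of these, 147 kept their direction and stayed on the same side of the threshold, 12 changed sign and 1 passed the threshold, Bmf by DESeq2 without control library 3 (0.69, adjusted p = 0.027). Leaving out 1 library gave Bcl2 -0.17 to 0.15, Bcl2l2 -0.0044 to 0.17, Bcl2l11 -0.020 to 0.30, Bik -0.54 to 0.42 and Bmf 0.69 to 2.33 on the log2 scale. By DESeq2 without control library 3, Bcl2 was -0.17, Bcl2l2 -0.014 and Bcl2l11 -0.024, with no adjusted p for Bik. Bik was -0.13 by DESeq2, -0.13 by edgeR and -0.14 by DESeq2 on the genes that passed the filter. The survival minus death index, -0.16 in limma, was -0.0355 by DESeq2, -0.0353 by edgeR and -0.0355 by DESeq2 on the filtered genes, and -0.24 to -0.11 with 1 library left out. The causes were not tested. Limma called 0 genes over 6 libraries, and 0 to 5 with 1 library left out, 5 without control library 3. DESeq2 called 129, 226 on the filtered genes and 711 without control library 3, where it called 1 member. Zmat3 passed by DESeq2 (-1.24, adjusted p = 0.0444, and -1.24, adjusted p = 0.0362, on the filtered genes) but not by DESeq2 without control library 3 (-1.22, adjusted p = 0.21). With the replicate number as a block limma called 0 genes and Bmf had 1.74 (adjusted p = 0.296). Same-numbered libraries deviated together for numbers 1 and 2 (correlations of 0.26 and 0.20) and not for 3 (-0.02). Control library 2 and knockout library 3, with unlike numbers, reached 0.22, so the numbers were not taken as pairs. The 2 DESeq2 fits with fewer genes or libraries were chosen after seeing the data. Bik, with 28 to 86 reads, and Bmf in control library 3, with 46 reads, are the members whose depth limits precision most.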
